A study of Mus musculus with 6 samples.

Results

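The 176 transcripts described here are microRNA hairpins that lie outside the miR-23, miR-27 and miR-24 loci and that were covered by countable reads in RNA of regulatory T cells (Treg cells). They were chosen by name (symbols beginning with Mir or Mirlet and a number), by an annotated length under 200 bases, and by a mean over the 6 libraries of at least 2 for RPKM times length in kilobases. RPKM is here the number of reads per kilobase of transcript for a library scaled to 10000000 counted reads, so the minimum means 2 reads per 10000000 counted reads. Of 1168 short hairpin symbols in the table outside those loci, 629 were listed at 0 in all 6 libraries and 176 reached the minimum. The values that chose the members are therefore their levels, and the levels below are a description. Just inside the minimum were Mir8092, Mir7059 and Mir697, at 2.05, 2.04 and 2.01, and just outside it were Mir6921, Mir5130 and Mir6922, at 1.98, 1.97 and 1.96.

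The study sequenced total RNA, small RNAs included, of flow-sorted CD4+Foxp3+ Treg cells from healthy female C57BL/6 mice. The WT group, which the labels give as "WT Tg", and the miR-27 Tg group (Tg below) had 3 libraries each. The series text places the overexpression of miR-27a in Treg cells only and names the mice Foxp3cre het; the age of the mice and the transgene's promoter were not given in the sources used here. WT libraries held between 37700000 and 42100000 counted reads, and Tg libraries between 34400000 and 38100000. The labels do not state whether the replicates are separate mice, and p-values here measure only the spread between libraries, which may be technical. All 7 genes of a list of T cell and Treg cell markers (Foxp3, Cd4, Cd3e, Il2ra, Ctla4, Ikzf2 and Tnfrsf18) were present. None of the 7 passed the test described below. Foxp3, Cd4 and Il2ra had log2 fold changes of 0.13, 0.18 and 0.10, and Cd3e and Tnfrsf18 of -0.20 and -0.19. Ctla4 and Ikzf2 had -0.56 and -0.51 (adjusted p = 0.0868 and 0.290 by limma).

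A microRNA begins as a hairpin within a longer primary transcript, from which the Drosha complex cuts it in the nucleus. Dicer then cuts the hairpin to a short mature strand, and an Argonaute protein uses the seed of that strand to find target messenger RNAs. Many hairpins lie in introns or exons of a host gene and are transcribed with it. The library kit used here makes fragments of long RNA, and reads over a hairpin can come from its primary transcript, its host or its precursor; they do not measure the mature microRNA. In bulk RNA, fewer cells of a type and less RNA per cell cannot be told apart.

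Of the 176 hairpins, 151 had a mature sequence in the RefSeq table (GRCm38.p6), with 244 mature strands and 233 different seeds. No strand carried the seed of miR-27. Below are the strands of the hairpins that the results turn on, 5′ to 3′, with the seed (bases 2 to 8) in capitals. The first 6 belong to the miR-17-92 cluster, in their order on the chromosome.
miR-17-5p: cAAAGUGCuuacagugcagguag
miR-18a-5p: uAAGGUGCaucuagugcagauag
miR-19a-3p: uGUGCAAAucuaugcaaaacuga
miR-20a-5p: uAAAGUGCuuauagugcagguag
miR-19b-3p: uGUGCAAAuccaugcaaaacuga
miR-92a-3p: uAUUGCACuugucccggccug
The next strand comes from the related cluster in Mcm7 and shares its seed with miR-92a-3p.
miR-25-3p: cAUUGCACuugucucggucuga
Both strands of the hairpin that was lower in Tg are shown next.
miR-6915-5p: aGGUCAGAgcagauggagguucgu
miR-6915-3p: cAACUUCCuuccucgugcccag
The next pair is annotated on opposite strands of the same bases.
miR-142a-3p: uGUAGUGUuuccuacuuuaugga
miR-142b: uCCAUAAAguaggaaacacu
The hairpin with most reads, in Ddx5, gives the last one.
miR-3064-5p: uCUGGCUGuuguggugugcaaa

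MiR-17-5p and miR-20a-5p share the seed AAAGUGC, miR-19a-3p and miR-19b-3p share GUGCAAA, and miR-25-3p and miR-92a-3p share AUUGCAC. In all, 11 seeds were held by 2 hairpins each, and the other seeds by 1. No sequence is shown for Mir6236.

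Reads on the hairpins were few. Over the 6 libraries a hairpin had 45 to 4990 reads, with a median of 117.5, and 99 of 176 had at least 100. Each of the 176 had reads in every library. Their sum was 0.0213% to 0.0233% of the counted reads of a library, and the 10 hairpins with most reads held 41.6% of the 50376 reads. The symbol number was 1000 or above in 145 of 176 hairpins, which are later entries of the microRNA catalogue.

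Hairpins known for their part in lymphocytes were mostly below the minimum, as were short hairpins in general. Of all 1168 outside the excluded loci, 176 reached it and 629 were listed at 0. Of 48 hairpins in the table from a list of haematopoietic and Treg microRNAs, 3 were members (Mir142, Mir142b and Mir22) and 21 were listed at 0. Mir155, whose microRNA is a target of Foxp3 and supports Treg fitness, was covered by 1, 1 and 2 reads in the WT libraries and by 2, 1 and 0 in Tg. Mir146b, Mir181a-1, Mir223 and Mir126a were listed at 0. Of 12 let-7 hairpins, which belong to a family that restrains growth genes, 1 was a member (Mirlet7d) and 5 were listed at 0. The 64 listed hairpins that did not reach the minimum had a median of 1.5 reads over the 6 libraries, and the highest, Mir93, Mir29c and Mirlet7c-2, had 34 each. Among them, Mir19b-2 and Mir31 passed the test described below (adjusted p = 0.01765 and 0.02791 by limma). Mir19b-2 was higher, from 0, 0 and 0 reads in WT and 1, 1 and 1 in Tg. Mir31 was lower, from 2, 1 and 1 reads in WT and 0, 0 and 0 in Tg. Calls on so few reads carry little weight.

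The hairpin with most reads lay beside an exon of an abundant messenger RNA. Mir3064 (NR_037224, mm10 chr11:106782693-106782759, minus strand) adjoins an exon of Ddx5, an RNA helicase that also takes part in the Drosha complex. It had 3627, 3590 and 3310 RPKM in WT and 3199, 3168 and 3097 in Tg. The Tg libraries were all below the WT libraries, but the difference did not pass the test (log2 fold change -0.15, SE 0.09, adjusted p = 0.589 by limma). Ddx5 itself had a log2 fold change of 0.03 (adjusted p = 0.954), which turned negative with quantile normalization.

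Mir8094 lies across an exon of Ddx39b, a helicase of splicing and messenger RNA export, and had 1267, 1293 and 1222 RPKM in WT and 1263, 1334 and 1264 in Tg. Mir5121 lies in Rpl13a, a ribosomal protein gene, and had 1443, 1609 and 1462 RPKM in WT and 1453, 1631 and 1997 in Tg. Its bases overlap a small nucleolar RNA, Snord33, so its reads cannot be assigned to the hairpin alone. Both had overlapping groups, with log2 fold changes of 0.03 and 0.16 (adjusted p = 0.933 and 0.681 by limma).

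Hairpins of the T cell receptor signalling genes Lat and Lck were also among the most covered. Mir7058 fills an intron of Lat, the adaptor of the receptor complex, and had 1137, 1116 and 1237 RPKM in WT and 1388, 1044 and 1432 in Tg. Mir8119 crosses an exon edge of Lck, the kinase that starts receptor signalling, and had 626, 715 and 603 RPKM in WT and 642, 669 and 669 in Tg. The groups overlapped for both, with log2 fold changes of 0.13 and 0.03 (adjusted p = 0.755 and 0.940 by limma).

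Of the 10 hairpins with most reads, Mir6236, described below, was the one that passed. Mir1668 in Adgre5, the adhesion receptor CD97, had 789 ± 32.9 RPKM in WT and 701 ± 105 in Tg (SD, n = 3). Mir546 in Ctdsp2, a phosphatase gene, had 432 ± 100.5 and 494 ± 89.3 RPKM, and Mir686 in Psmb5, a catalytic subunit of the proteasome, had 379 ± 41.8 and 450 ± 92.9. The groups overlapped for these hairpins, with log2 fold changes of -0.18, 0.20 and 0.23.

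Mir142 and Mir142b are annotated on opposite strands of one locus, which makes a microRNA found throughout blood lineages. The hairpins share 64 bases, and miR-142b and miR-142a-3p share 20 positions. Since the authors counted both strands, the reads of the locus cannot be told apart. Mir142 had 245, 347 and 270 RPKM in WT and 225, 355 and 323 in Tg (log2 fold change 0.06, SE 0.19, adjusted p = 0.948 by limma), and Mir142b, which is longer, had 415, 544 and 417 RPKM in WT and 343, 433 and 420 in Tg (-0.20, SE 0.14, adjusted p = 0.630). The groups overlapped for both.

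By the GENCODE M21 annotation of the same build, 173 of the 176 hairpins lay within another gene. In 64 at least 50% of the bases were in an exon, 22 crossed an exon edge and 87 lay in an intron. Mir6236 and Mir8091 were in no gene, and Mir1198 was not placed because its row spans far more than its length. The host was on the same strand for 154 hairpins and on the opposite strand for 19. For 12 hairpins both ends were within 5 bases of the ends of an intron, the form of a hairpin released by splicing (a mirtron).

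The level of a hairpin relative to its host differed with its place in the host. Per length, exonic hairpins with a host on the same strand had a median of 0.791 of the host's RPKM (interquartile range 0.403 to 1.05, n = 47). Hairpins across an exon edge had 0.336 (n = 20), and intronic hairpins 0.190 (0.137 to 0.280, n = 80). The library medians ran from 0.543 to 0.843 for exonic and from 0.174 to 0.197 for intronic hairpins, so the ranges did not overlap in these 6 libraries. Since the members were chosen by level, hairpins with a low ratio in hosts of low level are missing from this comparison, and no test was made. Mir3061, with the lowest exonic ratio at 0.0453, is among 15 of 163 hairpins that lie outside the table's row of the host or across its end.

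Intronic hairpins differed among themselves. In 22 that meet an exon of a transcript found only in the comprehensive GENCODE set (such as a retained intron), the median ratio was 0.267, and in the other 58 it was 0.172. The 12 that fill an intron, 1 of which also touches an exon edge, had 0.370. The highest ratio was that of Mir1982, which fills an intron of Oaz1, a regulator of polyamine synthesis. Mir1982 had 3.21 times the RPKM of the table's row of that gene. It is also among the 22 that meet an exon of the comprehensive set, so this ratio cannot be read as that of a spliced-out hairpin. It had 495, 449 and 473 RPKM in WT and 421, 438 and 406 in Tg, with each Tg library below each WT library, and did not pass (log2 fold change -0.16, SE 0.08, adjusted p = 0.462 by limma). The other hairpins of this form with more of the host's level than the host itself were Mir7088 in Mst1 (1.42), Mir7091 in Dnase1l1 (1.22) and Mir6958 in Dennd6b (1.16), all in hosts of low level. In the test described below 0 of the 12 passed, and 0 of the 19 hairpins antisense to their host. Since 0.374% of all genes tested were called higher and 0.653% lower, these counts of 0 say nothing about such hairpins.

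**Figure D1:**
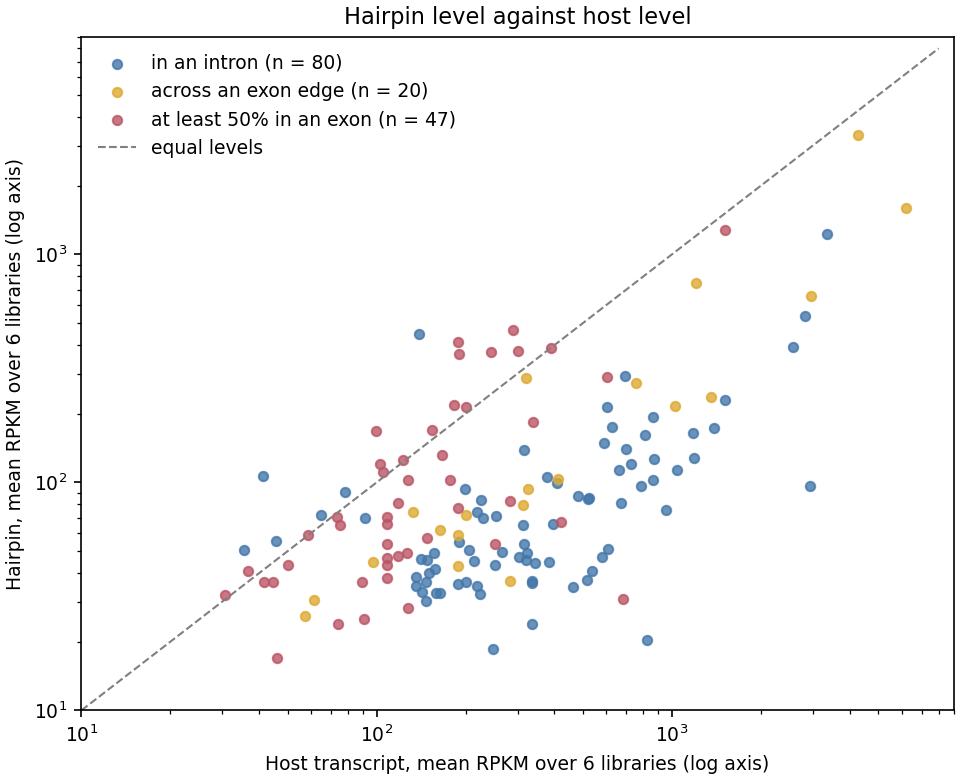
Mean RPKM over the 6 libraries of each hairpin (vertical, log axis) against that of its same-strand host (horizontal, log axis), coloured by place in the host; the dashed line marks equal levels. Exonic hairpins lie nearest the line (median ratio 0.791) and most intronic hairpins well below it (median 0.190).

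Whether the hairpins differed between Tg and WT Treg cells was tested by limma on log2(RPKM + 1) over all 13621 genes with a mean of at least 1 RPKM, with a Benjamini-Hochberg adjusted p under 0.05 as the threshold. All 176 hairpins passed that filter. Mir17 and Mir6236 were higher in Tg (1.14% of 176, against 0.374% of all genes tested), and Mir6915 was lower (0.568%, against 0.653%). Of the 176, 161 had reached the membership minimum in each group's own mean and 15 in only 1 group's, 8 of them in Tg; Mir17 is among these, so its membership rests on the group in which it was higher and its call adds nothing to a count of members. Of the 161, 1 was higher and 1 lower (0.621% each), shares near those of all genes.

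At an unadjusted p under 0.05 there were 30 hairpins (17.0%, against 13.0% of all genes), 16 higher and 14 lower. The Tg libraries were all above the WT libraries for 12 hairpins (6.82%, against 6.84%) and all below them for 14 (7.95%, against 11.6%). The median log2 fold change was 0.03 over the members and -0.01 over all genes tested. The range was from -1.11 for Mir3062, in Pfas, to 1.69 for Mir17. The members had a median SE of 0.24, against 0.14 over all genes, and 173 of 176 did not pass.

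**Figure D2:**
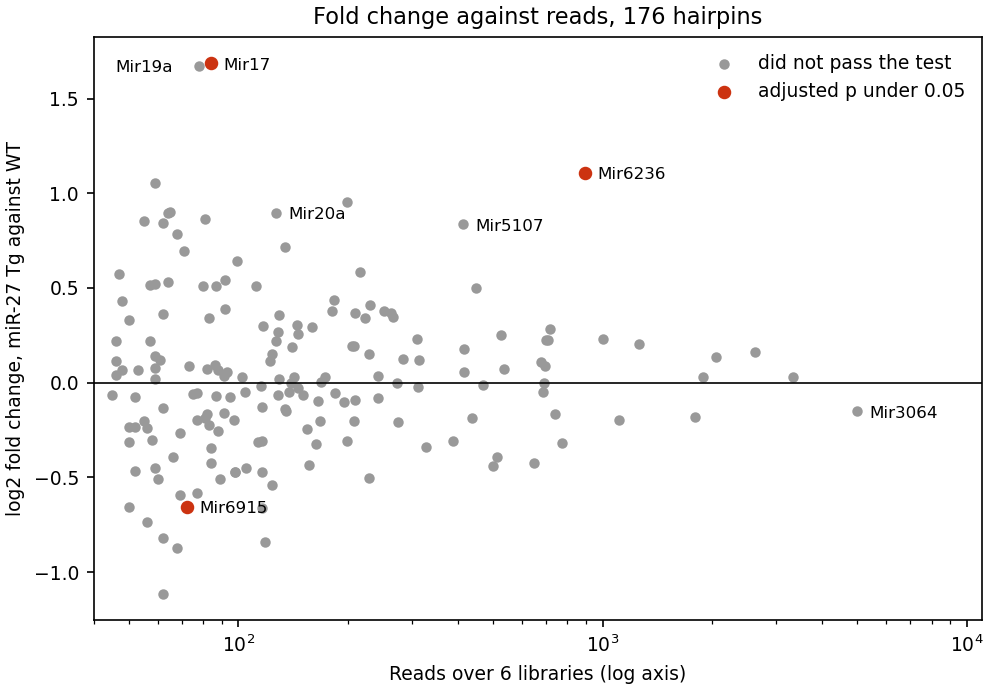
Log2 fold change of Tg against WT (vertical) against the reads of each of the 176 hairpins over the 6 libraries (horizontal, log axis); red points passed the test. Fold changes spread most among hairpins under 100 reads, where Mir17, Mir19a and Mir6915 lie, and Mir6236 stands out among those with more.

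All 6 hairpins of the miR-17-92 cluster had fold changes above 0, and 1 of them, Mir17, passed the test. The cluster, known as oncomir-1, supports lymphocyte growth and survival. Its 6 hairpins lie within 836 bases (mm10, chr14:115043671-115044506, plus strand), all in an exon of the host RNA Mir17hg by GENCODE. They share 1 primary transcript and are not independent of each other.

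Mir17 (NR_029785, chr14:115043671-115043754) had 20.1, 21.4 and 22.4 RPKM in WT, from 7, 7 and 7 reads, and 57.0, 80.5 and 77.0 RPKM in Tg, from 18, 23 and 22 reads. Each Tg library was above each WT library, and WT was nearly level. The log2 fold change was 1.69 (SE 0.15, adjusted p = 0.0115 by limma). Counts of 7, 7 and 7 lie closer together than counting error gives on average, so this SE and adjusted p may be too small. Its mean per 10000000 counted reads was 1.77 in WT and 5.93 in Tg, on either side of the membership minimum. The ratio of summed reads per depth was 3.34, with an exact Clopper-Pearson 95% interval of 2.01 to 5.76, which covers counting error only. Mir17 did not pass without WT replicate 3 (adjusted p = 0.0508) or without Tg replicate 3 (0.0674).

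Mir19a, which carries the seed of the cluster's miR-19 strands, had 11.7, 37.7 and 16.4 RPKM in WT and 81.1, 60.9 and 53.8 in Tg (log2 fold change 1.67, SE 0.37, adjusted p = 0.0973 by limma). The groups did not overlap, but the WT libraries differed by their 4, 12 and 5 reads, and the hairpin passed without WT replicate 2 (adjusted p = 0.0200). Like Mir17 it reached the minimum only in Tg (1.78 in WT and 5.29 in Tg). Mir20a, with the seed of miR-17-5p, had 49.3, 31.2 and 32.5 RPKM in WT and 61.9, 65.8 and 82.2 in Tg (0.89, SE 0.20, adjusted p = 0.0917).

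Mir19b-1 had 44.2, 47.3 and 67.9 RPKM in WT and 73.3, 84.4 and 104.7 in Tg (0.72, SE 0.19, adjusted p = 0.151 by limma), again without overlap. Mir18 had 32.5, 18.7 and 27.9 RPKM in WT and 60.8, 58.1 and 30.6 in Tg (0.86, SE 0.29, adjusted p = 0.255), with Tg replicate 3 inside the WT range. Mir92-1, the last of the cluster, had 42.1, 51.5 and 80.6 RPKM in WT and 96.4, 84.5 and 40.4 in Tg (0.30, SE 0.35, adjusted p = 0.796). Tg replicates 1 and 2 were above each WT library, and Tg replicate 3 was the lowest of the 6, so the overlap rested on that library.

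Summed over the cluster the WT libraries had 76, 71 and 81 reads and the Tg libraries 143, 131 and 119, or 18.1, 18.0 and 21.5 against 37.6, 38.0 and 34.6 per 10000000 counted reads. These sums did not overlap between the groups, but they include Mir17 and Mir19a, which reached the membership minimum only in Tg. No sum without them was made, so the sums are a description and no support for a difference. Each of the 6 hairpins had a log2 fold change above 0 in each of 17 fits (the reported fit and its alternatives), and the lowest was 0.06, for Mir92-1. The fits reuse the same libraries and the hairpins share a transcript, so the constant sign adds no support. The table's row of Mir17hg (NR_029382, chr14:115044390-115046728) covers 80 bases of Mir92-1 and 2 of Mir19b-1 and none of the other hairpins, so it measures mostly the RNA downstream of the cluster. That row had 119, 96.3 and 82.3 RPKM in WT and 116, 113 and 123 in Tg (log2 fold change 0.26, SE 0.14, adjusted p = 0.507 by limma). Per length, Mir17 stood at 0.215 of this row in WT and 0.609 in Tg, and Mir92-1 at 0.586 and 0.629; the difference between hairpin and row was not tested.

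**Figure D3:**
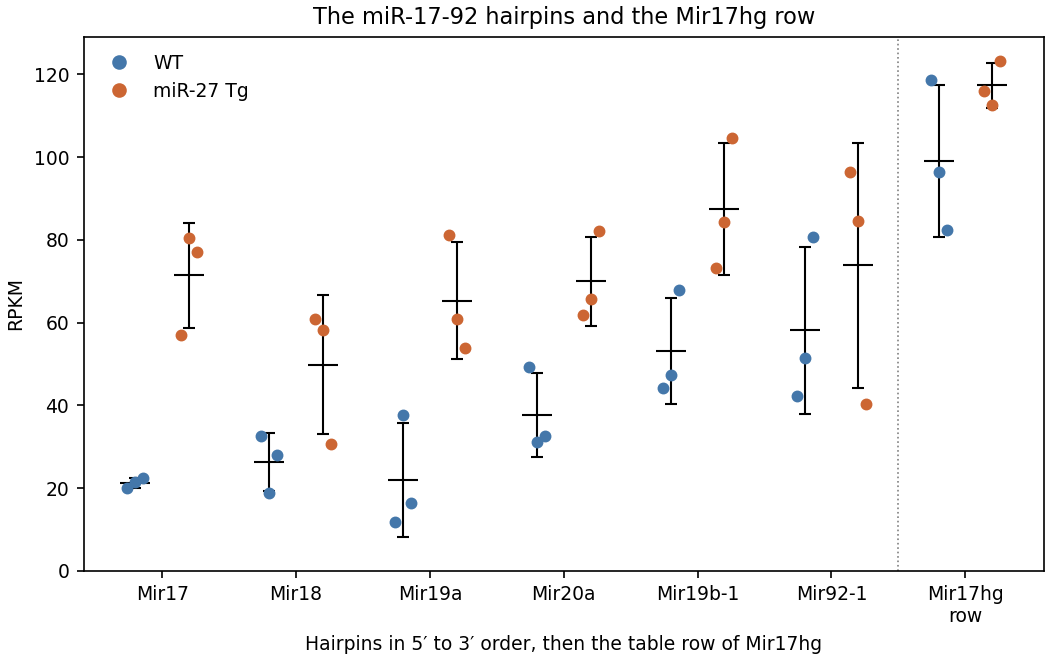
RPKM (vertical) of the 6 hairpins of the miR-17-92 cluster in 5′ to 3′ order and of the table's Mir17hg row (horizontal), for 3 WT and 3 Tg libraries; points are libraries, and bars the mean and SD. The groups are apart for Mir17, Mir19a, Mir20a and Mir19b-1 and overlap for Mir18, Mir92-1 and Mir17hg.

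The paralogous cluster in Mcm7, a subunit of the replicative helicase, gave 1 member. Mir25 (chr5:138165321-138165404, minus strand) had 17.2, 42.9 and 28.8 RPKM in WT and 47.5, 31.5 and 63.0 in Tg (log2 fold change 0.69, SE 0.35, adjusted p = 0.462 by limma), with overlapping groups. Mcm7 had a log2 fold change of 0.19 (adjusted p = 0.628). Mir106b and Mir93 of that cluster had 22 and 34 reads over the 6 libraries and were not members. Their log2 fold changes had opposite signs, -0.54 and 0.63 (adjusted p = 0.679 and 0.651 by limma).

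Mir6236 (NR_105744, chr9:110281287-110281409, plus strand) was the member with most reads that passed. It is annotated outside any gene, and no function is given for it in the sources used here. It had 195, 173 and 265 RPKM in WT, from 100, 83 and 122 reads, and 426, 386 and 548 in Tg, from 198, 162 and 230 reads. The groups did not overlap, and the mean went from 211 ± 48.3 to 453 ± 84.2 RPKM (SD, n = 3), a log2 fold change of 1.11 (SE 0.18, adjusted p = 0.0397 by limma). It did not pass in any of the 6 fits that leave out 1 library (adjusted p = 0.0529 to 0.133), nor without a filter on low values (0.0765) or without a mean trend in limma (0.0758), while its log2 fold change stayed between 0.96 and 1.28 in the first 6. With no host gene in the annotation, it was not set beside a host row. Rows of like sequence elsewhere in the genome were not looked for, so reads shared with them cannot be told apart.

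Mir6915 (NR_105880, chr10:128388832-128388900, plus strand) lies in an intron of Ankrd52, which encodes a regulatory subunit of protein phosphatase 6. It had 55.9, 56.1 and 58.6 RPKM in WT, from 16, 15 and 15 reads, and 34.8, 34.2 and 38.4 in Tg, from 9, 8 and 9 reads. It fell by 0.65 (log2 fold change, with SE 0.11 and adjusted p = 0.0394 by limma), and each Tg library was below each WT library. The spread within groups was narrower than counting error on so few reads gives on average, so the SE and adjusted p may be too small. The counting interval for the ratio of summed reads, 0.629, ran from 0.373 to 1.04. The call was lost in each of the 6 fits without 1 library (adjusted p = 0.0865 to 0.144), on a log2 scale of reads (0.417) and without a filter on low values (0.0715). Ankrd52 had 146 ± 5.14 RPKM in WT and 136 ± 20.5 in Tg (log2 fold change -0.11, adjusted p = 0.787, and 0.02 without Tg replicate 3).

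**Figure D4:**
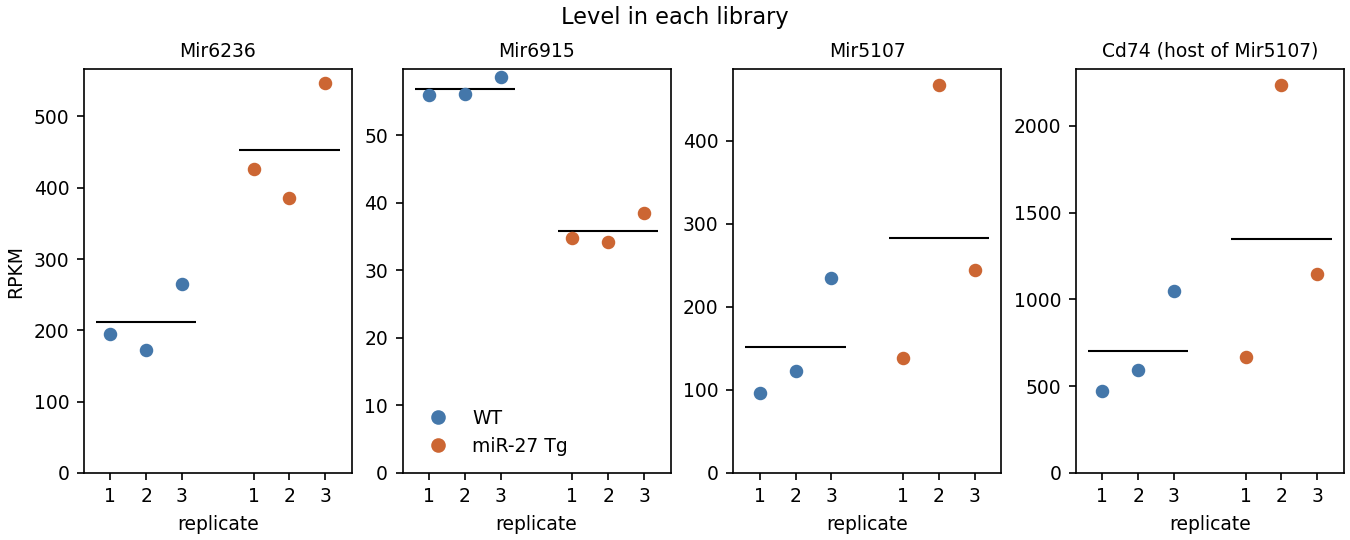
RPKM (vertical) in each replicate (horizontal) of WT and Tg for Mir6236, Mir6915, Mir5107 and Cd74, the host of Mir5107; lines mark group means. Mir6236 and Mir6915 separate the groups, and Mir5107 follows Cd74 from library to library, both highest in Tg replicate 2.

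A pair of members from the lymphocyte and let-7 lists had positive fold changes that did not pass. Mir22, exonic in Mir22hg, had 27.8, 32.5 and 36.7 RPKM in WT and 78.2, 34.0 and 37.1 in Tg (log2 fold change 0.51, adjusted p = 0.551 by limma), and its difference lay in Tg replicate 1. Mirlet7d had 4.66, 19.9 and 33.8 RPKM in WT and 23.2, 42.7 and 34.2 in Tg (1.06, adjusted p = 0.535), and its WT libraries ranged from 2 to 13 reads.

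Mir5107 and Mir3074-1 were singled out after their values were seen. Mir5107 crosses an exon edge of Cd74, the invariant chain of MHC class II, a gene of antigen-presenting cells. It had 95.7, 123 and 235 RPKM in WT and 139, 467 and 244 in Tg, and Cd74 had 473, 592 and 1050 RPKM in WT and 667, 2238 and 1146 in Tg. Both were lowest in WT replicate 1 and highest in Tg replicate 2, the groups overlapped, and neither passed (log2 fold changes 0.84 and 0.85, adjusted p = 0.518 and 0.482 by limma). The other 10 genes of the B cell list had a summed level of 141 to 174 RPKM in WT and 112 to 189.8 in Tg, and these ranges overlapped. The summed myeloid list ran from 666 to 1084 RPKM in WT and from 796 to 2023 in Tg, with no gene at 0 in every library. Of 16 myeloid markers tested by limma 1 (Itgam) was higher (6.25%, against 0.374% of all genes) and 9 had an unadjusted p under 0.05, all higher (56.2%, against 13.0%), with a median log2 fold change of 1.02. The CD8 T and NK list ran from 324 to 378 RPKM in WT and from 243 to 392 in Tg, with no gene at 0 in every library. Of 10 tested, 2 were lower by limma (against 0.653% of all genes), Nkg7 and Xcl1 (adjusted p = 0.0257 and 0.0238). Of the same 10, 6 had an unadjusted p under 0.05 (60.0%, against 13.0% of all genes), 2 higher and 4 lower. The part of such cells in the hairpin values was not tested.

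Mir3074-1 overlaps the excluded hairpin Mir24-1 on the opposite strand, in the homologous miR-23b cluster, so its reads cannot be told from that locus. It had 53.8, 78.7 and 72.7 RPKM in WT and 159, 69.1 and 207 in Tg (log2 fold change 0.96, SE 0.36, adjusted p = 0.310 by limma). The groups overlapped through Tg replicate 2, and without that library the hairpin passed (adjusted p = 0.0463).

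Among the 35 hairpins with at least 300 reads, 7 had groups that did not overlap, 3 higher in Tg (8.57%, against 6.84% of all genes) and 4 lower (11.4%, against 11.6%). These shares are near those of all genes and are no result about the hairpins. The higher ones were Mir6236, Mir7115 and Mir7654 and the lower ones Mir3064, Mir1982, Mir1896 and Mir5114, and those other than Mir6236 did not pass. The hairpins described next were chosen after their values were seen. Mir7654, in an exon of Arglu1, an arginine and glutamate rich protein of splicing speckles, had 183, 254 and 292 RPKM in WT and 354, 311 and 349 in Tg (log2 fold change 0.50, SE 0.17, adjusted p = 0.240 by limma). The Arglu1 row had a value of -0.12 on the same scale (adjusted p = 0.634), so hairpin and host had opposite signs.

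Mir5114, in Scd2, a desaturase of fatty acids, had 345, 508 and 411 RPKM in WT and 341, 324 and 261 in Tg (log2 fold change -0.44, SE 0.16, adjusted p = 0.288 by limma), and Scd2 had -0.30 (adjusted p = 0.462). Mir1903 crosses an exon edge of Nrp1, a surface receptor typical of thymus-derived Treg cells, and had 259, 380 and 343 RPKM in WT and 249, 265 and 224 in Tg (-0.39, SE 0.15, adjusted p = 0.298), with Nrp1 at -0.28 (adjusted p = 0.331). The Mir1903 groups overlapped through WT replicate 1. In these pairs hairpin and host had the same sign and similar size, and neither passed.

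Mir8113, Mir6973a and Mir6974 were chosen for their hosts after their values were seen. Mir8113 in Cd27, a costimulatory receptor, had 242 ± 45.3 RPKM in WT and 231 ± 7.99 in Tg (SD, n = 3; log2 fold change -0.05, adjusted p = 0.929 by limma). Mir6973a in Ltb, the lymphotoxin beta gene, had 377 ± 57.1 and 404 ± 24.9 RPKM (0.11, adjusted p = 0.794), and Mir6974 in its neighbour Lta had 110 ± 31.9 and 101 ± 18.3 (-0.10, adjusted p = 0.911). The groups overlapped for all 3.

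Among the hairpins with most reads, fold changes lay close to those of the host. Over 162 hairpins with a tested host, the log2 fold changes of hairpin and host had Pearson's r of 0.43 and Spearman's rho of 0.49. Without the 6 hairpins of Mir17hg they had 0.39 and 0.44 (n = 156). Over the 90 with at least 100 reads they had 0.58 and 0.54, and over the 30 with at least 300 reads 0.79 and 0.69. Without Mir5107 and Mir5114, whose hosts are farthest from the median, the last came to 0.64 and 0.62 (n = 28). The median distance between the fold changes was 0.18, 0.12 and 0.075 on the log2 scale in these 3 sets, and 104 of 162, 59 of 90 and 22 of 30 pairs had the same sign. These are descriptions across hairpins that share the 6 libraries, and reads of an exonic hairpin also count for its host. Of 163 hairpins with a host row, 15 lie outside that row or across its end.

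**Figure D5:**
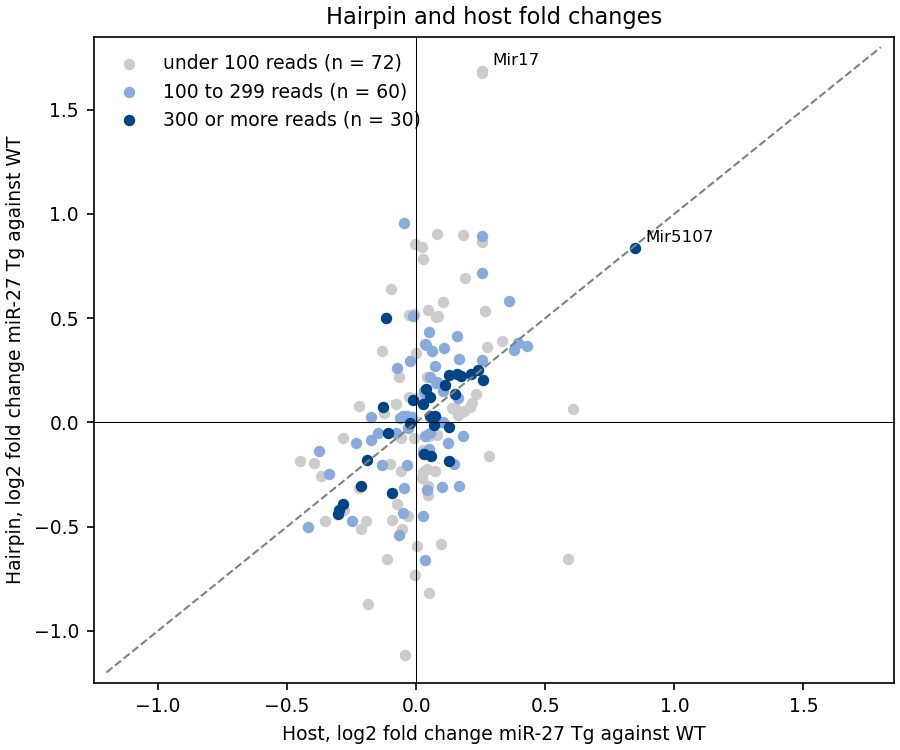
Log2 fold change of Tg against WT for each hairpin (vertical) and its host (horizontal), coloured by the hairpin's reads over the 6 libraries; the dashed line marks equal changes. Hairpins with 300 or more reads lie nearest the line (median distance 0.075). Mir17 lies far above it, but the host row used for it covers none of its bases.

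The spread between replicates was compared with counting error. The variance of a hairpin's reads within a group, divided by that expected from counting, had a median of 1.40 in WT and 0.926 in Tg over all members, and of 2.49 and 1.22 over the 35 with at least 300 reads, where the upper quartiles were 4.11 and 4.88. Counting error takes the larger share of the spread where reads are few, so the values over all members do not show that replicates differed by counting alone.

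Genes of the microRNA pathway did not pass. Of 23 tested, from Drosha, Dgcr8, Xpo5 and Dicer1 to the Argonaute and Tnrc6 genes, 0 had an adjusted p under 0.05 by limma, 2 reached an unadjusted p under 0.05, both higher (8.70%, against 13.0% of all genes), and the median log2 fold change was 0.02 (-0.01 over all genes). Dgcr8, the RNA-binding partner of Drosha, had 107 ± 7.54 RPKM in WT and 138 ± 2.79 in Tg (log2 fold change 0.36, SE 0.09, adjusted p = 0.135). Mir1306, a member that lies in Dgcr8, had a log2 fold change of 0.58 (adjusted p = 0.558). Dicer1 had 133 ± 5.98 and 127 ± 12.9 RPKM (-0.07, adjusted p = 0.857). Of 16 known host transcripts of microRNAs that were tested, 0 passed and 2 had an unadjusted p under 0.05 (12.5%, near the 13.0% of all genes). With 0.374% of all genes tested called higher and 0.653% lower, the counts of 0 among 23 and 16 say nothing about either set.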

How the data were processed

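The authors deposited 1 table of RPKM values for 34711 RefSeq transcripts, made with HOMER by counting reads on both strands in exons and scaling each library to 10000000 counted reads, per the file headers. STAR 2.2.0c, HOMER and the builds mm10 and GRCm38 are named in the submitters' processing notes. How reads with several matches were treated was not given in the sources used here. One row per symbol was kept, the row with the highest mean RPKM (24453 symbols). Reads were recovered as RPKM times length over the value of 1 read, and 100% of 849 values up to 50 reads were whole within 0.1. Differences were tested by limma 3.58.1 (R 4.3.3) with a mean trend on log2(RPKM + 1) in all 6 libraries without covariates, two-sided, with p-values adjusted over 13621 genes. This scale understates fold changes of low values, but a short hairpin can still pass on very few reads. The fit was tested on simulated data drawn over the whole table. That test did not look at short hairpins with few reads, so it does not check calls such as Mir17 and Mir6915. Hosts and exons came from GENCODE M21 and mature sequences from RefSeq (GRCm38.p6). The coordinates of Mir1198 and Mir6367 in the table differ from those in RefSeq. Full values are given for members that passed, the 10 with most reads, and members of 3 lists (the miR-17-92 cluster with its paralogues, haematopoietic and Treg microRNAs, let-7). The members and lists were chosen with earlier results of these data known. Alternatives covered the pseudocount, filter, scaling, trend, weights, replicate block, membership minimum and leaving out each library.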

Additional observations from a re-analysis of the deposited data

How the results depend on the processing

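Of 544 values of single hairpins and genes under an alternative, 510 kept their direction and their side of the threshold, 18 lost a call, 3 gained one and 13 changed sign. The number of hairpins higher in miR-27 Tg (Tg) was 2, and 1 without a filter on low values, without a trend or with a membership minimum of 5. The number lower was 1, and 0 on a log2 scale of reads, without a filter or with a minimum of 5, and 3 with array weights (3 higher). With a replicate block 4 were higher and 5 lower; same-numbered libraries had deviations correlated at 0.368, 0.097 and 0.037, and not every library correlated best with its own number, so the numbers were not taken to pair the samples. Leaving out 1 library gave 0 to 2 higher and 0 to 1 lower. Both counts were 0 without WT replicate 3 and without Tg replicate 3, where over all genes 3 were higher and 2 lower. The hairpins called changed between these fits. Mir17 was joined by Mir7026 and Mir19a without WT replicate 2, by Mir7041 without Tg replicate 1 and by Mir3074-1 without Tg replicate 2. Mir6236 and Mir6915 were called in none of these fits. With quantile normalization the log2 fold changes of Ddx5 and Rpl13a turned to -0.115 and -0.0349. Over the fits without 1 library, log2 fold changes that changed sign ran from -0.0763 to 0.251 for Mir142, -0.0193 to 0.103 for Mir8119, -0.185 to 0.019 for Ankrd52, -0.0449 to 0.107 for Ddx5, -0.0087 to 0.164 for Lck, -0.0885 to 0.279 for Mir22hg and -0.0911 to 0.125 for Rpl13a.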
